A study of Mus musculus with 2 samples.

Results

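Malat1, Neat1, Tug1, Gas5, Kcnq1ot1, Meg3, H19, Rian and Mirg, 9 well-known long noncoding RNAs, were followed in kidney tissue taken at 10 weeks of age from a female C57BL/6J mouse, an adult of a common inbred strain. They were chosen by symbol, and all 9 were found among 43346 gene rows, of which 6853 are long noncoding RNA genes in the reference annotation. The series holds 1 group of 2 libraries of polyadenylated RNA, which the labels number as technical replicates 2 and 1 from a single biological replicate. Work on library 2 was done in May 2015, per the labels, which name no treatment, no second tissue and no genetic change. Every SD marked n = 2 is therefore between libraries of 1 tissue sample and carries no information on animals. Library 2 held 20720537 expected counts (the estimated number of reads) and library 1 held 28263730.

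Long noncoding RNAs are transcripts that act without being translated. Malat1 is retained in nuclear speckles, where splicing factors gather, and its mature form ends in a genomically encoded A-rich tract in place of a poly(A) tail. Neat1 makes a short polyadenylated transcript and a long one that is not polyadenylated in the usual way, and the long one is the scaffold of paraspeckles, nuclear bodies rich in RNA-binding proteins. Tug1 is a widely expressed nuclear and cytoplasmic RNA, and Gas5 carries small nucleolar RNAs (snoRNAs) in its introns. Kcnq1ot1 and H19 belong to the imprinted domains beside Kcnq1 and Igf2, where Kcnq1ot1 is made from the paternal allele and silences neighbouring genes in cis and H19 is made from the maternal allele. Meg3, Rian and Mirg are maternally expressed hosts of microRNAs and snoRNAs in the imprinted Dlk1-Dio3 domain.

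On mm10, Malat1 (chr19:5795690-5802672, minus strand) and Neat1 (chr19:5824708-5845478, minus strand) are neighbours. Tug1 lies at chr11:3639785-3649673 (minus strand) and Gas5 at chr1:161034422-161038539 (plus strand). On chromosome 7 H19 lies at chr7:142575529-142578143 and Kcnq1ot1 at chr7:143203458-143296549, both on the minus strand. Meg3 (chr12:109541001-109571726), Rian (chr12:109603940-109661716) and Mirg (chr12:109729764-109749460) follow each other on the plus strand of chromosome 12.

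The sequences shown first are from the 3′ parts of transcripts, because the libraries were made from polyadenylated RNA. The mature form of Malat1 and the long Neat1 transcript do not end in the usual way. All are from mm10, minus strand, written 5′ to 3′. The A-rich tract of Malat1 lies at chr19:5795982-5796072 and the end of the long Neat1 transcript at chr19:5824708-5824800, with the U-rich stretches and the A-rich tract of each in capitals:

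Malat1 A-rich tract: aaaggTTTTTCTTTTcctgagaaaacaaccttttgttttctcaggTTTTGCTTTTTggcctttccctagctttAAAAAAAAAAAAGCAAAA

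Neat1 long end: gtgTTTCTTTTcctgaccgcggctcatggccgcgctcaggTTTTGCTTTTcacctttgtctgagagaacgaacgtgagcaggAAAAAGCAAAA

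Both hold TTTTGCTTTT followed by AAAAGCAAAA. Among 122312 reference transcripts of 400 bases or more, 4 (0.00327%) held these letters in that order in their last 400 bases. The search read the transcript's strand, and the 4 came from the genes Malat1, Neat1 and Ankrd31. The letters were set by what both printed sequences hold, so finding Malat1 and Neat1 was fixed in advance. The run of 12 A in Malat1 starts at base 6674 of the full-length transcript, and 298 bases lie between the run and the annotated end. The other ends carry AATAAA, the usual signal for polyadenylation, in capitals. They are the last exon of a spliced short Malat1 transcript at chr19:5795691-5795785 and the end of the short Neat1 transcript at chr19:5842307-5842366:

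Malat1 last exon: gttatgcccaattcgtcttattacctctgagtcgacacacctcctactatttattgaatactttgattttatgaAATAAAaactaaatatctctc

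Neat1 short end: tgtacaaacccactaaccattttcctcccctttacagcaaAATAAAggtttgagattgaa

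AATAAA stood in the last 50 bases of 26.6% of 141672 reference transcripts, and its reverse complement in 4.09%. Among member transcripts of the reference it stood there in 27 of 92, and the long Neat1 transcript was not one of them. The annotated full-length Malat1 transcript was one, with 16 bases after the motif. It runs through the A-rich tract and holds the printed last exon too, so it and the spliced short transcript both hold this AATAAA. Another annotated Malat1 transcript, ENSMUST00000173499, ends at base 757 of the full-length transcript and has no AATAAA in its last 50 bases.

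Malat1, Neat1, Gas5 and Tug1 were abundant in the kidney, and the imprinted members were scarce. In TPM, a length-corrected share of a library, 4 of the 9 members reached 1 in both libraries. Malat1 had 171 TPM in library 2, against 464 TPM in library 1, a mean of 318 ± 207 TPM (SD, n = 2 libraries). Neat1 had 257 TPM in library 2, against 81.6 TPM in library 1 (169 ± 124 TPM, SD, n = 2). Gas5 stood at 137 TPM in library 2, against 80.8 TPM in library 1 (109 ± 39.9 TPM, SD, n = 2). Thus Neat1 led in library 2 and Malat1 in library 1, and the order of Malat1, Neat1 and Gas5 did not hold beyond the spread between libraries. Tug1, at 25.1 TPM in library 2, against 35.6 TPM in library 1 (30.3 ± 7.45 TPM, SD, n = 2), was the lowest of these 4 in both.

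The remaining 5 members lay near or under 1 TPM. Rian had 1.35 TPM in library 2, against 0.71 TPM in library 1, from 23 counts in library 2 and 28 in library 1. Meg3 had 1.11 TPM in library 2, against 0.07 TPM in library 1, from 20 counts in library 2 and 9 in library 1. H19 had 0.52 TPM from 8 counts in library 2 and none in library 1, where a count of 0 allows up to 3 counts or 0.0903 TPM. Kcnq1ot1 was low per length, at 0.08 TPM in library 2, against 0.09 TPM in library 1, yet it had 111 counts in library 2 and 235 in library 1 over a gene of 84395 bases in the quantified annotation. Mirg had no count in library 2, which allows up to 0.126 TPM, and 1 count (0.02 TPM) in library 1. The order among Rian, Meg3 and H19 rests on 28 counts or fewer per library.

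**Figure D1:**
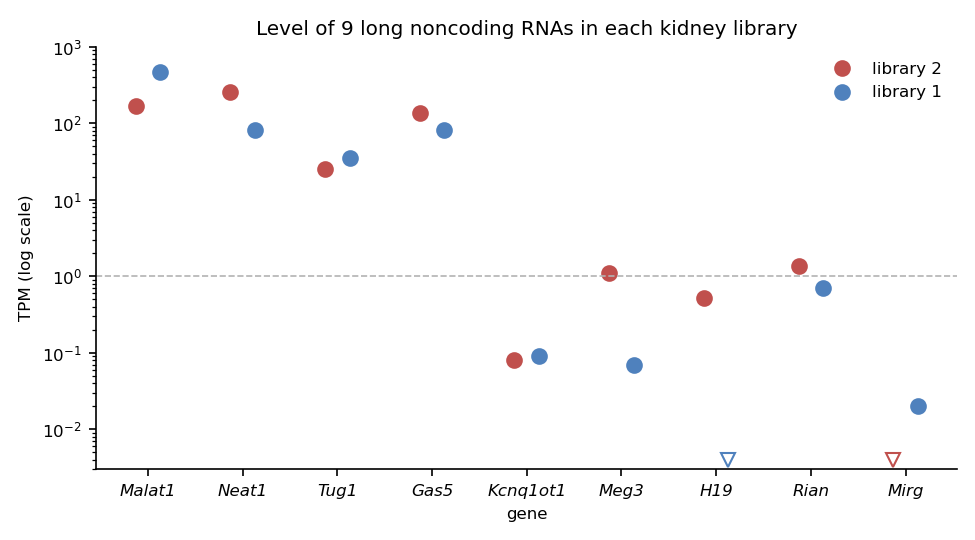
TPM of each of the 9 long noncoding RNAs on a log axis, 1 point per library, with library 2 left of library 1 and a dashed line at 1 TPM; open triangles at the foot mark a library listed at 0. Malat1, Neat1, Tug1 and Gas5 lie above 1 TPM in both libraries, from 25.1 TPM to 464 TPM, and the other members lie at 1.35 TPM or less.

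Among the 6853 long noncoding RNA genes, Malat1 ranked 4 by TPM in library 2 and 1 in library 1, Neat1 ranked 3 in library 2 and 4 in library 1, Gas5 ranked 5 in both, and Tug1 ranked 32 in library 2 and 8 in library 1. The 9 members held 12.3% of the TPM of all long noncoding RNA genes in library 2 and 30.1% in library 1. Of their expected counts they held 28.2% in library 2 and 34.8% in library 1. Long noncoding RNA genes as a whole were a small share of each library, 0.483% of TPM in library 2 and 0.22% in library 1. Rian ranked 384 in library 2 and 329 in library 1, and Kcnq1ot1 1421 in library 2 and 958 in library 1.

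**Figure D2:**
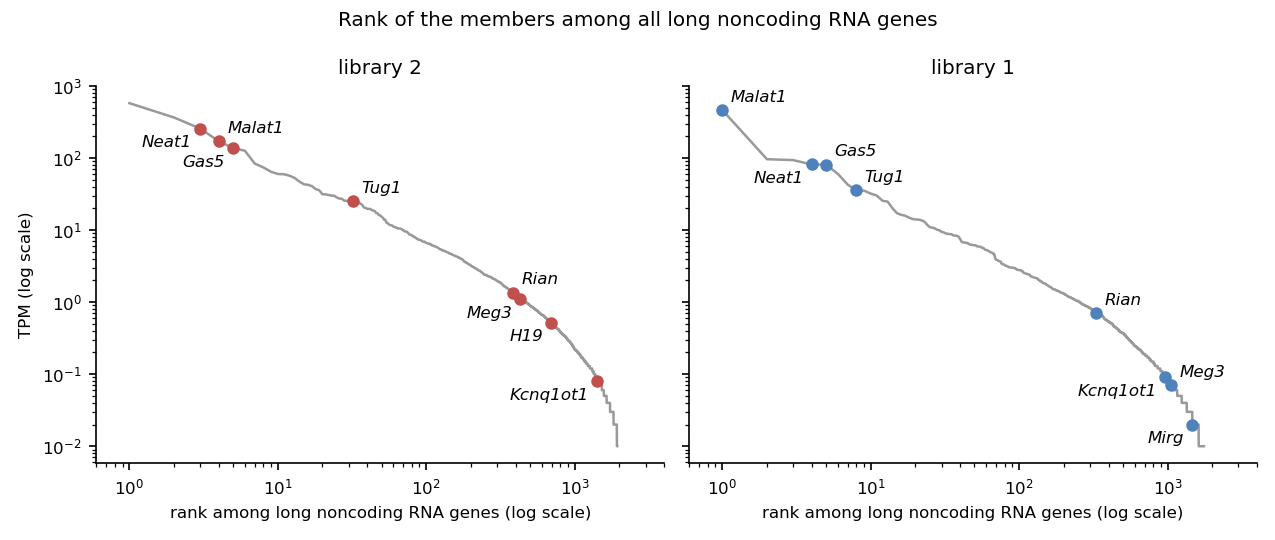
TPM against rank for all long noncoding RNA genes with a value above 0 (both axes log), library 2 on the left and library 1 on the right, with members as points. Malat1 ranks 4 in library 2 and 1 in library 1, and Tug1 ranks 32 in library 2 and 8 in library 1.

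The libraries differed as a whole in ways that touch every level above. Mitochondrial genes and their nuclear copies held 36.5% of TPM in library 2 and 74.5% in library 1. With these left out of the sum, Malat1 stood at 269.9 TPM in library 2, against 1823 TPM in library 1, and Tug1 at 39.5 TPM in library 2, against 139.8 TPM in library 1. Neat1 then stood at 405 TPM in library 2, against 320.2 TPM in library 1. Gas5, at 216 TPM in library 2, against 317 TPM in library 1, was then lower in library 2. The tissue label was met by its markers, since all 3 markers of the thick ascending limb and all 3 of the proximal tubule reached 1 TPM in both libraries. The thick ascending limb markers summed to 3924 TPM in library 2, against 998 TPM in library 1, and the proximal tubule markers to 3767 TPM in library 2, against 271 TPM in library 1. Of the 5 adrenal markers 0 reached 1 TPM (summed 1.6 TPM in library 2, against 0.49 TPM in library 1, Th at 0 in both). All 3 podocyte and 5 endothelial markers reached it in both libraries, while the 3 principal cell markers and the 5 stromal and mural markers all reached it in library 2. In library 1, 2 principal cell markers and 3 stromal and mural markers reached it. Of 3 skeletal muscle markers 1 reached it in library 2 and 0 in library 1 (summed 1.52 TPM in library 2 and 0.76 in library 1). Of 4 fat markers 3 reached it in library 2 and 1 in library 1 (summed 31.3 TPM in library 2 and 1.66 in library 1), and of 4 leukocyte markers 4 reached it in library 2 and 2 in library 1 (summed 62.2 TPM in library 2 and 8.91 in library 1). The part of these marker differences in the results below was not tested. The libraries are labelled as technical replicates of 1 biological replicate, so these sums describe libraries and do not show a difference in cell types. A difference in library preparation, fewer cells of a type and less RNA per cell cannot be told apart here.

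On counts scaled by TMM, a method that sets library sizes by the bulk of genes, Malat1, Tug1 and Kcnq1ot1 were lower in library 2, and no member was called higher there. Calls needed an adjusted p under 0.05 in a two-sided exact conditional binomial test together with a ratio of at least 2-fold. The test compares these libraries by counting error alone, and not conditions. Of 7 members with 10 counts or more, 3 were called. Over all 15553 genes tested, 60.5% were called, of which the larger share (35.5% of genes tested) was higher in library 2 and 24.9% of genes tested were higher in library 1. Among the 905 long noncoding RNA genes tested 42.9% were called, 15.5% with the higher level in library 2 and 27.4% with the higher level in library 1. The median log2 ratio of library 2 over library 1 was -0.44 over those 905 genes and 0.12 over all genes tested.

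Malat1 had 19161 counts in library 2 and 40136 in library 1, a log2 ratio of -1.52 ± 0.01 (counting SE), or 2.87-fold lower in library 2, with an exact binomial adjusted p under 1e-300. Tug1 had 1829 counts in library 2 and 5180 in library 1 (log2 ratio -1.96 ± 0.04, adjusted p under 1e-300). Kcnq1ot1 had 111 counts in library 2 and 235 in library 1 (log2 ratio -1.53 ± 0.17, exact binomial adjusted p = 1.63e-21). Gas5, with 809 counts in library 2 and 951 in library 1, passed the p threshold below the 2-fold limit (log2 ratio -0.69 ± 0.07, adjusted p = 3.84e-23). Neat1 was the member that passed the p threshold in the other direction, with 13206 counts in library 2 and 7358 in library 1, a log2 ratio of 0.39 ± 0.02 and an adjusted p of 2.59e-77. By adjusted p alone 83.5% of all tested genes passed.

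These directions depend on how the libraries are scaled. With library sizes set by total counts in place of TMM, log2 ratios moved up by 0.90, and 91.5% of all calls were higher in library 2, against 58.8% of calls under TMM. Tug1 was still called lower in library 2 (-1.05), whereas Malat1 (-0.62) and Kcnq1ot1 (-0.63) no longer reached 2-fold. Neat1 (1.29) and Meg3 (1.54) were then called higher in library 2, and Gas5 (0.21) and Rian (0.16) turned to a higher level there. Medians and calls of the gene lists further on move with this shift and are given on both scalings where their direction differs.

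Meg3 and Rian did not pass. The ratio of Meg3 was 1.59-fold with a 95% interval from 0.705 to 4.04 (exact, counting error only), and that of Rian 0.605-fold with an interval from 0.33 to 1.08, so that neither direction was detectable at this depth. Their adjusted p values in the exact binomial test were 0.334 and 0.105. H19 and Mirg, with under 10 counts over both libraries, were not tested. For H19 the exact 95% interval of the ratio, which covers counting error in both libraries, started at 1.24-fold. Taking 3 counts as the limit for library 1 and the 8 counts of library 2 as they stand, the level was at least 1.94-fold higher in library 2.

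The ratio between the libraries followed the GC content of the transcript. Across 11508 genes with 100 counts or more the Spearman correlation was 0.915, a description across genes that share both libraries. Malat1 has a GC content of 42.5%, and 834 other genes within 1 percentage point of it had a median log2 ratio of -1.39 (quartiles -1.60 and -1.18). Tug1, at 38.9%, stood beside 392 genes with a median of -1.84 (quartiles -2.02 and -1.65). Neat1, at 51.1%, stood beside 1195 genes with a median of 0.56 (quartiles 0.08 and 1.13). All 3 lay between the quartiles of genes of their own GC content and within 0.18 of a smooth trend in log2 ratio. With that trend removed, Malat1 and Tug1 kept their direction at log2 ratios of -0.13 and -0.14 but were not 2-fold apart, and Neat1 turned to -0.17 (exact binomial adjusted p = 1.11e-24, 0.000704 and 8.13e-16).

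Gas5 and Rian lay above the trend and Meg3 below it. Gas5, at 44.2% GC, had a log2 ratio 0.45 above the trend, higher than 89.2% of the 1090 genes within 1 percentage point. At the 46.3% GC of ENSMUST00000159706, the next transcript of Gas5 by share, the trend was -0.75, close to the gene's log2 ratio of -0.69. The gap of Gas5 thus depends on which transcript stands for the gene. Rian, at 42.9% GC, lay 0.60 above, with a counting SE of 0.40. Meg3 differed from the trend by -3.65 at the 58.7% GC of its 755-base transcript, with a counting SE of 0.57. Its 14548-base transcript, which had 7.08 of its counts in library 2 and 7 in library 1, has 49.2% GC, so the gap of Meg3 depends on which transcript stands for the gene. Kcnq1ot1 has no GC value on this rule, since its length in the quantified annotation and the 93092 bases of the reference transcript differ by more than 10% of the quantified length. That reference transcript has 40.3% GC, and the log2 ratio of Kcnq1ot1 lay 0.14 above the trend of -1.67 there. Of the 6 tested members with a GC value on the rule, 2 were called before and 1, Meg3, after the trend was removed, lower in library 2. H19, which was not tested, has 55.8% GC and a log2 ratio of 3.89 ± 2.10 (counting SE). The 1116 genes within 1 percentage point of it had a median of 2.87 (quartiles 1.91 and 3.95), so its higher level in library 2 is not particular to it. The residual SD about the trend was 1.21 over the fitted genes.

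**Figure D3:**
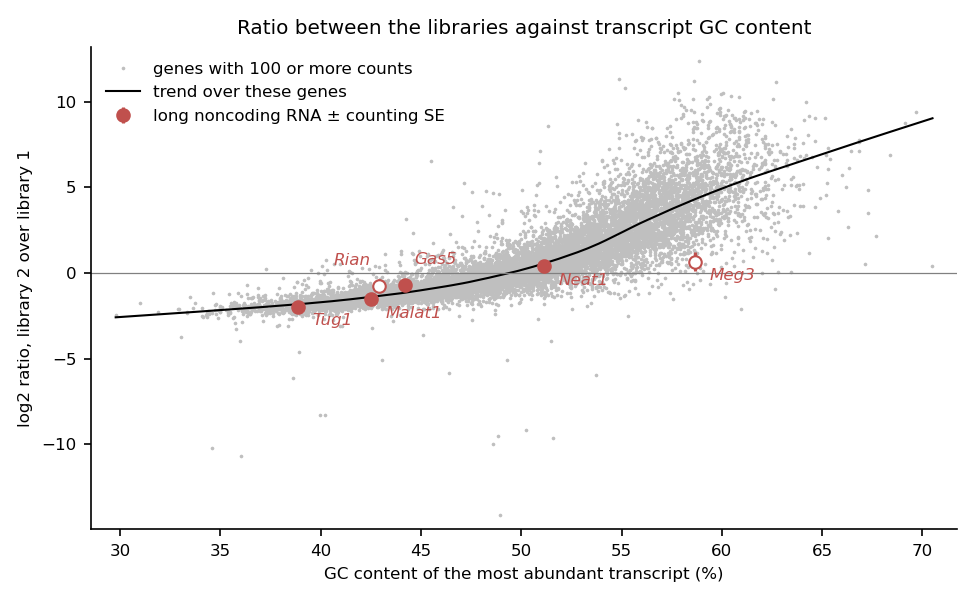
Log2 ratio of library 2 over library 1 against the GC content of each gene's most abundant transcript, with 11508 genes in grey, their smooth trend as a line and tested members as red points with counting SE (open where counts were under 100). Tug1, Malat1 and Neat1 lie within 0.18 of the trend, Gas5 and Rian above it, and Meg3 below it (difference -3.65).

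By counts the difference in Malat1 lay mostly in its full-length, unspliced transcript of 6983 bases (ENSMUST00000172812). That transcript had 19161 counts in library 2 and 36387 in library 1, where it held 90.7% of the gene's counts. Its log2 ratio was -1.38 ± 0.01 (counting SE), 2.6-fold lower in library 2, beside -1.52 for the gene. By TPM it had 171.3 in library 2, against 174 in library 1, and the gene-level difference took another form. The full-length transcript made up 100% of the gene's TPM in library 2 and 37.4% in library 1. A transcript of 656 bases (ENSMUST00000173523) had 0 TPM in library 2, against 158 TPM in library 1, from 0 expected counts in library 2 and 2260 in library 1. Another of 556 bases (ENSMUST00000173314) had 0 TPM in library 2, against 132 TPM in library 1, from 0 counts in library 2 and 1477 in library 1. In TPM as deposited, the excess of library 1 at gene level thus sat in these short transcripts. The 656-base one took 5.63% and the 556-base one 3.68% of the gene's counts in library 1. Deposited TPM includes mitochondrial genes and their copies, at 36.5% in library 2 and 74.5% in library 1. The near-equal TPM of the full-length transcript holds on that scale only, and transcript TPM without these genes was not computed.

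The 556-base transcript joins an exon in the 3′ part of Malat1 to the last exon printed above and leaves out 1218 bases between them, from base 5670 to base 6887 of the full-length transcript. The left-out stretch holds the A-rich tract printed above. ENSMUST00000173523 is not in the reference annotation used here, so its exons are not given. No fold is given for either short transcript, as the counts of isoforms of 1 gene are estimates. The posterior means, deposited as a further estimate, were 24.8 counts in library 2 and 2250 in library 1 for the 656-base transcript (posterior SD 20.3 counts in library 2 and 61.2 in library 1). For the 556-base transcript they were 7.4 counts in library 2 and 1479 in library 1 (posterior SD 7.22 counts in library 2 and 45.8 in library 1). With all Malat1 counts placed on the full-length transcript, an alternative added after the data were seen, Malat1 had 171.3 TPM in library 2, against 191 TPM in library 1.

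Neat1 was divided between a short and a long transcript. The short one (ENSMUST00000174287, 3004 bases) held most of the gene, with 247 TPM in library 2, against 81 TPM in library 1, which was 96.2% of the gene's TPM in library 2 and 99.4% in library 1. The long, paraspeckle-forming one (ENSMUST00000173672, 20771 bases) had 4.99 TPM in library 2, against 0.51 TPM in library 1. In counts the long transcript had 1692 in library 2 and 322 in library 1, which is 12.8% of the counts of Neat1 in library 2 and 4.37% in library 1. Its log2 ratio of 1.94 ± 0.09 (counting SE) stood against 0.25 ± 0.02 for the short transcript. The 17599 bases beyond the end of the short transcript have 46.5% GC, and the shared 5′ part has 51.3%. At the GC content of the whole long transcript the trend over genes gave a log2 ratio of -0.55, so the long transcript lay 2.49 above it. The ratios of the short and the long transcript were not compared by a test, as both are estimates from overlapping sequence.

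**Figure D4:**
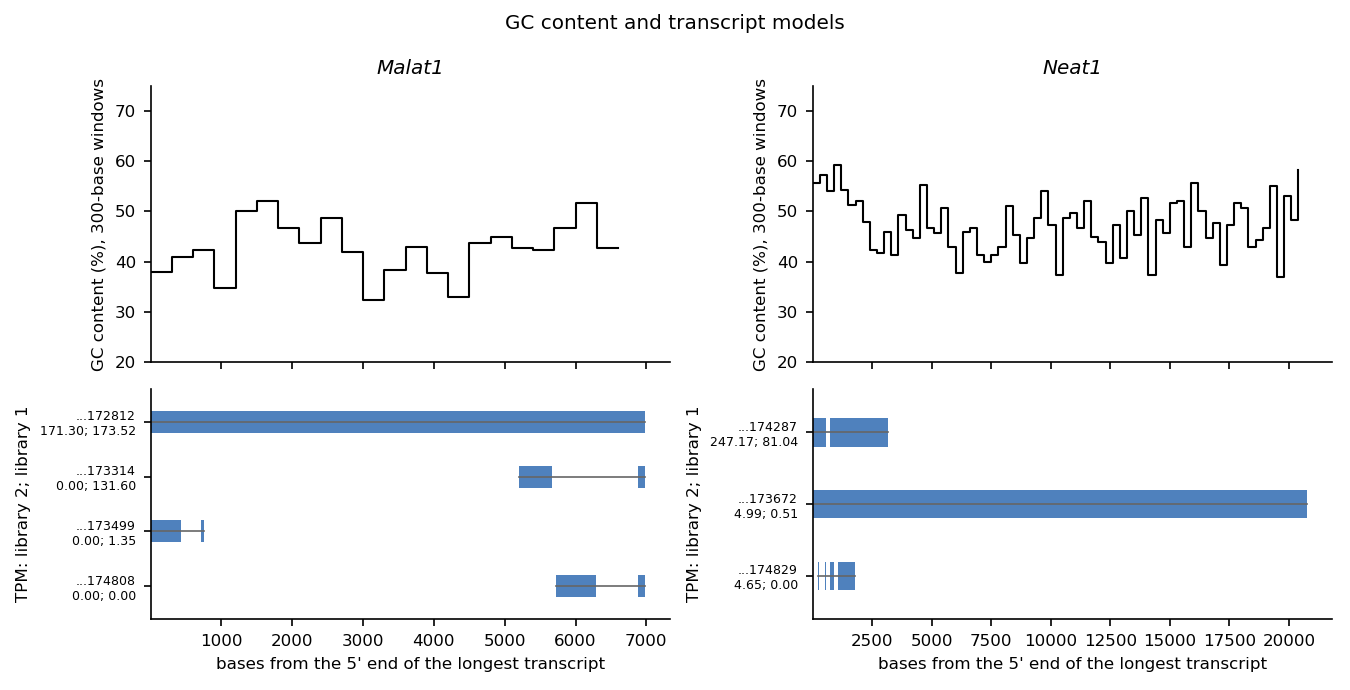
GC content in 300-base windows along the longest transcript of Malat1 (left) and Neat1 (right), above the exons of their annotated transcripts, each labelled with the end of its identifier and its TPM in library 2 and then library 1; the axis gives bases from the 5′ end. GC content runs between 32.3% and 52% in Malat1 and between 37% and 59.3% in Neat1, and the 556-base Malat1 transcript joins the last exon to one in the 3′ part of the gene.

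Tug1 was divided among transcripts in both libraries. ENSMUST00000153313 (5112 bases) held 46% of its TPM in library 2 and 37.1% in library 1, and ENSMUST00000144852 (4720 bases) held 32.7% in library 2 and 44.8% in library 1. These overlap along the gene, and their counts were estimated with a posterior SD of 85 counts in library 2 and 169 in library 1 for the first, which had 936 counts in library 2 and 2004 in library 1. Another transcript, ENSMUST00000193809 (1612 bases, 1 exon), held 13.8% in library 2 and 6.34% in library 1 from 81 counts in library 2 and 99 in library 1. It is rich in GC, with 63%, and its log2 ratio of -0.74 ± 0.22 differed by -6.91 from the trend at that GC content. The most GC-rich 100 bases of that transcript (chr11:3648590-3648689, 84% GC) and the most AT-rich 100 bases of ENSMUST00000153313 (chr11:3647093-3647192, 23% GC), both mm10 and minus strand, show how far base composition ranges within 1 gene:

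Tug1 GC-rich stretch: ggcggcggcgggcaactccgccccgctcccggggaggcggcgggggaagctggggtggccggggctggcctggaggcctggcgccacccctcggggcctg

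Tug1 AT-rich stretch: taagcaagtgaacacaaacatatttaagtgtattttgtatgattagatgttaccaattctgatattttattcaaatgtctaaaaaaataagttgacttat

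The gene Morc2a overlaps Tug1 on the opposite strand, and 30% of ENSMUST00000193809 is shared with it as antisense sequence. No source used here says whether reads were counted by strand, so reads of that transcript and of Morc2a (9.3 TPM in library 2, against 6.48 TPM in library 1) may not be separable.

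Gas5 kept the same pair of leading transcripts in both libraries. ENSMUST00000162558 (502 bases, 12 exons) held 60% of its TPM in library 2 and 54.4% in library 1 (82.3 TPM in library 2 and 44 in library 1). ENSMUST00000159706 (557 bases, 11 exons) held 26.6% in library 2 and 30.4% in library 1 (36.5 TPM in library 2 and 24.5 in library 1). Of the 25 transcripts quantified, 21 had counts in at least 1 library. The leading pair differ at the start and at 1 exon. RefSeq lists another promoter window of Gas5 upstream, at chr1:161034351-161034650 (73.7% GC). The window printed here (chr1:161034916-161035215, plus strand, GRCm38.p6, 62% GC) holds both starts, with the bases that only ENSMUST00000159706 of the pair includes in capitals:

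Gas5 promoter window: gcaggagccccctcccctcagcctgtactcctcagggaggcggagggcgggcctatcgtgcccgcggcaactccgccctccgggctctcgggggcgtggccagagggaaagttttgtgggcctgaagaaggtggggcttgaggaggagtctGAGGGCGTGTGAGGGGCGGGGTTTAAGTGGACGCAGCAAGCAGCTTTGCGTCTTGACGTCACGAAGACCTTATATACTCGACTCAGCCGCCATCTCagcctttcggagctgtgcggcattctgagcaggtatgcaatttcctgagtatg

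The 41-base exon at chr1:161037124-161037164 (plus strand, mm10), in capitals as a whole, is part of ENSMUST00000162558 and absent from ENSMUST00000159706:

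Gas5 exon: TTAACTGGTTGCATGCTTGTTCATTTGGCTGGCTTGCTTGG

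By counts ENSMUST00000159706 had 220 in library 2 and 276 in library 1, and the other had 422 in library 2 and 420 in library 1. The log2 ratio was -0.78 ± 0.13 for ENSMUST00000159706 and -0.45 ± 0.10 for the other (counting SE). Zbtb37 overlaps Gas5 on the opposite strand at 2.07 TPM in library 2, against 2.21 TPM in library 1.

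**Figure D5:**
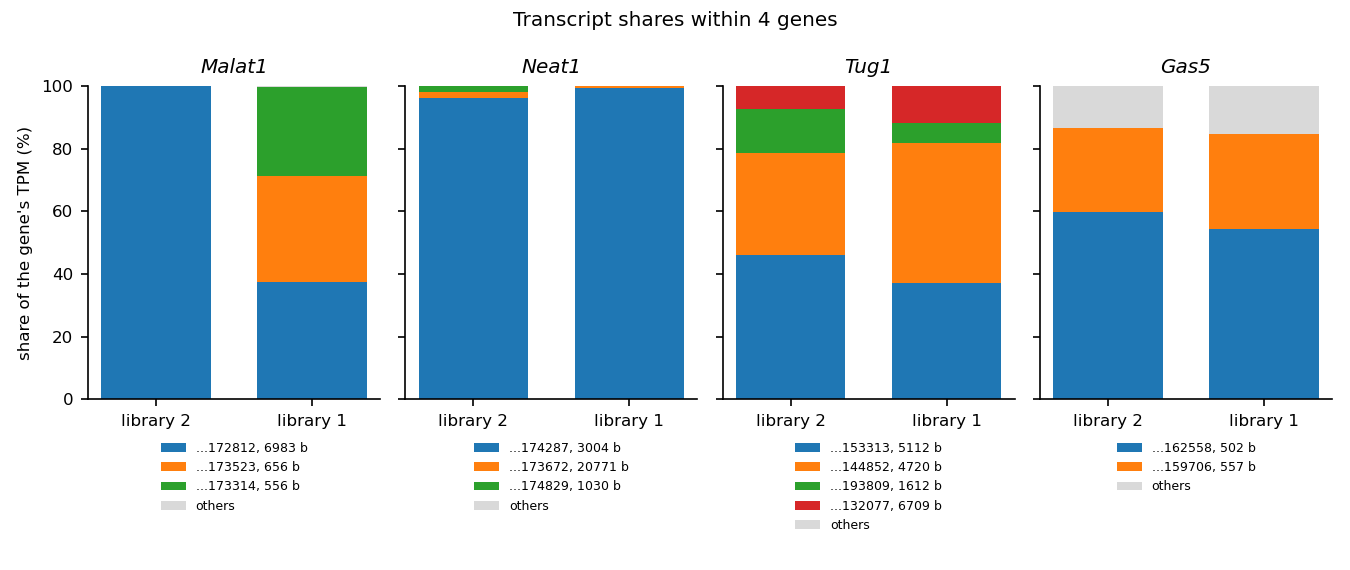
Share of each transcript in the TPM of Malat1, Neat1, Tug1 and Gas5, as stacked bars from 0 to 100% with library 2 left of library 1; the legends give the end of the transcript identifier and its length in bases (b). Malat1 is 100% full-length in library 2 and 37.4% in library 1, where short transcripts hold the rest, while Neat1 is at least 96.2% short transcript in both.

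Meg3, Rian, H19 and Mirg had too few counts for transcript shares, and Kcnq1ot1 has a single transcript. Of 11 Meg3 transcripts, 5 had counts in library 2 and 2 in library 1. Of 19 Rian transcripts, 3 had counts in library 2 and 7 in library 1. Of 5 H19 transcripts, 3 had counts in library 2 and 0 in library 1, and of 12 Mirg transcripts, 0 in library 2 and 1 in library 1. For these the point estimate and the posterior mean parted. The posterior mean of Rian was 4.38 TPM in library 2, against 2.44 TPM in library 1. That of Meg3 was 2.02 TPM in library 2 and 0.62 in library 1, that of H19 1.03 TPM in library 2 and 0.25 in library 1, and that of Mirg 1.07 TPM in library 2 and 0.61 in library 1. Mirg and H19 thus had posterior means above 0 in a library with no count, and the deposited interval of Mirg in library 2 (0.372 to 1.93 TPM) left out 0. By posterior means 8 members reached 1 TPM in library 2 and 5 in library 1, where by the point estimate 6 did so in library 2 and 4 in library 1.

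The microRNAs and snoRNAs inside the members could not be read from these tables. The annotation places 44 small RNA genes (21 microRNAs and 23 snoRNAs) within members on the same strand, of which Rian has 17, Mirg 14, Gas5 10, Meg3 2 and H19 1. Of these 42 have a row, all at 0 counts in both libraries, and 41 have an effective length of 0, so the tables could not have given them a level. The longest has 120 bases. Mature sequences from RefSeq (GRCm38.p6), with the seed (bases 2 to 8) in capitals, are shown for H19 and Meg3 to make that length plain. They lie at chr7:142577112-142577133 and chr7:142577078-142577099 (minus strand) and at chr12:109563710-109563731 (plus strand):

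mmu-miR-675-5p (H19): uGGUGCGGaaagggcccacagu

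mmu-miR-675-3p (H19): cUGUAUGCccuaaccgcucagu

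mmu-miR-770-5p (Meg3): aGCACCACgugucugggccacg

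Coding genes listed for the imprinted domains ranged from scarce to abundant. Of 6 listed for the Dlk1-Dio3 domain 1, Wars, reached 1 TPM in both libraries (median 0.59 TPM in library 2, against 0.02 TPM in library 1). On this list 3 of 6 coding genes had the counts to be tested, and all 3 were called higher in library 2. Of these, Wars and Wdr25 may lie beside the imprinted domain and not in it, which was not checked. Wars, a tryptophan tRNA ligase, had 19.4 TPM in library 2, against 2.63 TPM in library 1, Wdr25 3.3 TPM in library 2 and 0.06 in library 1, and Dlk1, a membrane protein of progenitor cells, 1 TPM in library 2 and 0.03 in library 1. On the list for the Igf2-H19 and Kcnq1 domains 7 of 18 coding genes reached 1 TPM in both libraries (median 15.6 TPM in library 2, against 0.35 TPM in library 1). There 9 of 13 tested coding genes were called higher in library 2 and 0 lower. Over all genes tested 35.5% were called higher in library 2 and 24.9% lower. The tetraspanin Cd81 had 277 TPM in library 2, against 30.5 TPM in library 1, the transporter Slc22a18 270 TPM in library 2 and 1.33 in library 1, and the histone chaperone Nap1l4 44.7 TPM in library 2 and 13.9 in library 1. Cd81 and Slc22a18 were called higher in library 2, and Nap1l4 was not called (log2 ratio of counts 0.32). Igf2, a growth factor named here after its values were seen, had 36.6 TPM in library 2, against 10.5 TPM in library 1, while H19 was at 0.52 TPM in library 2 and 0 in library 1. By counts under TMM Igf2 was not called either (log2 ratio -0.15). Kcnq1, which Kcnq1ot1 overlaps on the opposite strand, had 17.3 TPM in library 2, against 2.16 TPM in library 1 and was also named after its values were seen; reads of this pair may not be separable. The median GC content of the tested genes was 55.5% in the first list and 56.5% in the second, against 49.9% over the genes of the trend, and the median log2 ratios were 3.33 and 2.48 against 0.12 over all tested genes. The 1116 genes within 1 percentage point of 55.8% GC had a median of 2.87 (quartiles 1.91 and 3.95). Both list medians lay between these quartiles, so the higher level in library 2 is not particular to these lists.

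Of 14 tested genes among other imprinted genes, 0 were called higher in library 2 and 4 lower under TMM (median log2 ratio -0.55), against 3 higher and 1 lower by total counts (median 0.35). The most abundant were the G protein subunit gene Gnas (436 TPM in library 2, against 122 TPM in library 1), the matrix proteoglycan Dcn (65.5 TPM in library 2 and 46.2 in library 1) and the cell cycle inhibitor Cdkn1c (13.9 TPM in library 2 and 8.57 in library 1), which is also 1 of the 13 tested genes of the list before. None of these 3 was called.

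Genes of the nuclear bodies that Malat1 and Neat1 belong to were nearly all detected. All 14 nuclear speckle and splicing genes reached 1 TPM in both libraries, with 0 called higher in library 2 and 9 lower under TMM, against 1 higher and 1 lower when library sizes were set by total counts. Over all genes tested 24.9% were called lower in library 2 under TMM. The splicing factor Srsf3 had 86.2 TPM in library 2, against 122 TPM in library 1, Srsf5 130 TPM in library 2 and 62.1 in library 1, and Srsf2 99.7 TPM in library 2 and 83.6 in library 1. On TMM-scaled counts, by which calls were made, Srsf3 and Srsf2 were called lower in library 2 (log2 ratios -1.33 and -1.09) and Srsf5 was not called (-0.64), so TPM and count ratios differ in direction for Srsf2 and Srsf5. The median log2 ratio of this list was -1.15 under TMM (-0.24 by total counts) at a median GC content of 42.6%. Of 16 paraspeckle protein genes 15 reached 1 TPM in both libraries, 4 were called higher in library 2, 6 lower and 6 were not called under TMM (median log2 ratio -0.57), against 4 higher and 0 lower by total counts (median 0.33). Hnrnpk, an RNA-binding protein, had 233 TPM in library 2, against 355 TPM in library 1, and Tardbp 117 TPM in library 2 and 141 in library 1. Both were called lower in library 2 under TMM.

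Coding genes beside Malat1 and Neat1 on chromosome 19 had other ratios than both. Of 9 tested 8 were called higher in library 2 and 0 lower, with a median log2 ratio of 2.64 at a median GC content of 55.6%. Over all genes tested 35.5% were called higher in library 2. Genes within 1 percentage point of 55.8% GC had a median log2 ratio of 2.87 (quartiles 1.91 and 3.95). The median of the neighbours lay between these quartiles, so their higher level in library 2 is not particular to this locus. The chromatin reader Dpf2 had 27.8 TPM in library 2, against 1.3 TPM in library 1, and the mitochondrial carrier family member Slc25a45 26.5 TPM in library 2 and 0.95 in library 1.

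Other snoRNA hosts and other long noncoding RNAs were divided in direction. Of 12 tested snoRNA hosts 3 were called higher in library 2 and 3 lower under TMM (median log2 ratio -0.22), against 5 higher and 1 lower by total counts (median 0.68). Snhg3 had 30.7 TPM in library 2, against 25.6 TPM in library 1, Snhg18 31.4 TPM in library 2 and 17.2 in library 1, and Snhg6 25.5 TPM in library 2 and 20.2 in library 1, all under Gas5. By counts these ran the other way under TMM, with Snhg3 (log2 ratio -1.09) and Snhg6 called lower in library 2 and Snhg18 (-0.49) not called. Of 14 tested genes among the other long noncoding RNAs 3 were called higher in library 2 and 7 lower under TMM (median log2 ratio -0.92), against 3 higher and 3 lower by total counts (median -0.02). Xist, which coats the inactive X chromosome, had 74.1 TPM in library 2, against 96.4 TPM in library 1, Hotairm1 24.5 TPM in library 2 and 0.93 in library 1, and Dleu2 10.4 TPM in library 2 and 10.8 in library 1. Under TMM Hotairm1 was called higher in library 2, and Xist and Dleu2 lower.

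For each of the more abundant members, the gene nearest in level was found by distance in log2(TPM + 1) over the 2 libraries. It was Sqstm1 for Neat1 (262 TPM in library 2, against 80.6 TPM in library 1, distance 0.03), Ppp3cb for Tug1 (25.2 TPM in library 2 and 35.1 in library 1, distance 0.02) and Chchd3 for Gas5 (137 TPM in library 2 and 83.4 in library 1, distance 0.04). For Malat1 it was the processed pseudogene Gm10221 at a greater distance of 0.30 (174 TPM in library 2 and 378 in library 1). Il10ra was nearest to Meg3 and Sowaha to Rian. For Kcnq1ot1, H19 and Mirg, 4, 7 and 184 genes tied at distance 0, with Clca2, Rhox6 and Rgs20 the first of them.

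Sequence shared with other genes was limited. At 95% identity the highest cover of a member transcript by another gene was 44.4%, in Meg3. Malat1 shared stretches of up to 453 bases with 90 genes, none covering more than 6.5% of its transcript. The stretch of 453 bases was that of Gm37376, which lies within Malat1 on the opposite strand.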

How the data were processed

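Kidney RNA was extracted with a lipid tissue kit, and the labels give a size range of 350 to 450 with no unit. The authors aligned reads to mm10 and quantified GENCODE release M4, per the text deposited with the samples. Tools and strand settings: not given in the sources used here. Expected counts (estimated reads of a gene or transcript) are raw as the authors deposited them. TPM, a column that the authors deposited, was taken as the count divided by effective length and scaled to the same total for either library. Transcript shares within genes come as a percent that the authors deposited. Posterior means, posterior SDs and interval bounds, with no level stated, are further columns that the authors deposited.

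Symbols, positions and transcript sequences are those of GENCODE M21, built on the same assembly; promoters and microRNAs are RefSeq's. Expected counts were rounded, and TMM sizes (edgeR 4.0.16) were set on genes with 10 counts or more. A quasi-likelihood fit was not possible with 1 library on each side. The exact conditional binomial test (scipy 1.17.1) had Benjamini-Hochberg adjustment over all 15553 genes, and ratios had a prior count of 0.5. P values below 1e-300 were not resolved. GC content was that of a gene's most abundant transcript with a reference length within 10%, and its trend was fitted by local regression (span 20%, statsmodels 0.14.6). Shared sequence was searched with blastn 2.17.0 for stretches of at least 100 bases. In simulated counts with counting noise alone, the test called 100 of 100 genes at 3-fold, 100 of 100 at 8-fold and 1 of 15337 with no change. The changed genes were drawn above a higher expected count than the 10 needed for testing, so detection at the counts of Meg3 was not simulated. The simulated counts held no GC trend, so they do not show how the test behaves on these libraries.

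Intervals and the floor of 3 counts cover counting error only. The 9 members, the 8 gene lists, the markers and the tests were chosen with earlier results of these data known. A rule named all members, their transcripts with a mean share of 10% or more, the 3 list genes of highest mean TPM and the gene nearest to each member; transcripts of members with few counts were summarised, and some genes the rule names are not reported here. The long Neat1 transcript, Igf2 and Kcnq1 were added by hand. Alternatives were DESeq2 1.42.0 size factors, total counts, no filter beyond 1 count, posterior means, a prior count of 5, the GC trend removed, mitochondrial genes left out, other transcript shares and each library left out.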

Additional observations from a re-analysis of the deposited data

How the results depend on the processing

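Removing the GC trend covers only genes with a GC value, which leaves out Kcnq1ot1. Among those, 1 of 6 tested members was called after it (Meg3) against 2 before, and 3269 of 14801 tested genes against 8951. It also reversed Neat1 (log2 ratio -0.17), Gas5 (0.45), Meg3 (-3.56) and Rian (0.58). Total-count scaling reversed Gas5 (0.21) and Rian (0.16). Why was not tested beyond what each setting itself does. Under DESeq2 size factors, posterior mean counts, a prior count of 5 and mitochondrial genes left out before scaling, all 9 members kept their direction and their side of the threshold. With no filter beyond 1 count, H19 was also called higher in library 2 (adjusted p = 0.0391, exact binomial test).

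Mean TPM without mitochondrial genes and their copies was 1046 for Malat1, 362 for Neat1, 89.7 for Tug1, 267 for Gas5, 0.24 for Kcnq1ot1, 2.46 for Rian and 0.0393 for Mirg. Posterior mean TPM averaged 0.64 for H19, 3.41 for Rian and 0.84 for Mirg. All counts placed on 1 transcript, an alternative chosen after seeing the data, gave 0.532 TPM for Rian, 0.0524 for Meg3 and 0.116 for H19. Meg3, at 0.59 by default, averaged 1.01 TPM without mitochondrial genes and 1.32 by posterior means, and H19, at 0.26 by default, 0.41 TPM without mitochondrial genes, each less than 1 SD of the pair away. As shares of expected counts, the leading transcripts of Neat1 and Gas5 held 91.2% and 48.1%, and by posterior means that of Rian held 6.48%. Leaving out either library moved each mean TPM and leading share by less than 1 SD of the pair, which follows from n = 2.

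No paired analysis was possible because the series has 1 group. With 28 counts or fewer per library, Meg3, H19, Rian and Mirg allow no firm order or transcript shares.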
